A study of Mus musculus with 8 samples.

Results

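The insulin-like growth factor (IGF) ligands, receptors and binding proteins were followed in petrous temporal bone (PTB) and paraflocculus/flocculus (PF/F) nuclei. They were chosen by gene symbol as 9 of the 32285 features counted: the ligands Igf1 and Igf2, the receptors Igf1r and Igf2r, and the binding proteins Igfbp2, Igfbp3, Igfbp4, Igfbp5 and Igfbp7. The study asked how loss of 1 copy of Tbx1, a T-box transcription factor gene, affects the bone that encloses the PF/F lobe of the cerebellum and the lobe itself. Single-nucleus RNA sequencing was carried out at postnatal day 5.5 on 8 libraries, with 2 WT and 2 Tbx1+/- libraries of each tissue, and each library was a pool of 5 mice. The Tbx1+/- mice, of both sexes and backcrossed onto C57BL/6J, carried 1 mutant copy of Tbx1 and were compared with WT littermates. The study describes 2 batches of mice, and the labels number the libraries of each group as replicates 1 and 2 without saying that these numbers mark the batches. The frozen bone was pulverised before nuclei were isolated, and the frozen PF/F was not.

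IGF1 and IGF2 are secreted growth factors that signal mainly through IGF1R, a receptor tyrosine kinase, whereas IGF2R, the cation-independent mannose-6-phosphate receptor, takes up IGF2 and delivers it to lysosomes. IGF-binding proteins hold the ligands outside cells and change their lifetime and access to the receptor, and IGFBP7 binds IGFs with low affinity. In growing bone IGF1 is a main mediator of growth hormone action. In most mouse tissues, though not all, Igf2 is expressed from the paternal allele and Igf2r mostly from the maternal allele.

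In the GRCm38 annotation the members lie on 6 chromosomes. Igf1 spans chr10:87858265-87937042 on the plus strand and Igf2 spans chr7:142650766-142666816 on the minus strand. Igf1r spans chr7:67952827-68233668 (plus) and Igf2r spans chr17:12682406-12769664 (minus). Igfbp2 at chr1:72824503-72852474 (plus) and Igfbp5 at chr1:72857932-72874884 (minus) are neighbours. Igfbp3 lies at chr11:7206086-7213923 (minus), Igfbp4 at chr11:99041244-99054392 (plus) and Igfbp7 at chr5:77349240-77408041 (minus). Igf2r, Igf2, Igf1 and Igfbp7 share bases with a noncoding gene on the opposite strand. Airn, the noncoding RNA that silences Igf2r on the paternal allele, overlaps 28354 bases of Igf2r. Igf2os overlaps 7124 bases of Igf2, Igf1os overlaps 5117 bases of Igf1, and Gm34648 overlaps 7085 bases of Igfbp7. Whether strand was used in counting is not given in the sources used here, so reads in these stretches are uncertain.

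RefSeq promoter windows of GRCm38.p6 were found for all 9 members, as 13 windows. Those of a ligand, of both receptors and of Igfbp4 are shown here, as the 250.0 bases before the RefSeq start, as examples of a ligand, both receptors and a binding protein. Capitals mark the GC box GGGCGG and the TATA box TATAAA, each searched on both strands.
Igf2, chr7:142657497-142657746, minus strand: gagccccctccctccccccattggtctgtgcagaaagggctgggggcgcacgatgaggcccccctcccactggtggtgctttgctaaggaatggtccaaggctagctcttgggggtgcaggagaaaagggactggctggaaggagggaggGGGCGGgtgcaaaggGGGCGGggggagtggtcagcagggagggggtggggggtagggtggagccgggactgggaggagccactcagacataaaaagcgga
Igf1r, chr7:67952007-67952256, plus strand: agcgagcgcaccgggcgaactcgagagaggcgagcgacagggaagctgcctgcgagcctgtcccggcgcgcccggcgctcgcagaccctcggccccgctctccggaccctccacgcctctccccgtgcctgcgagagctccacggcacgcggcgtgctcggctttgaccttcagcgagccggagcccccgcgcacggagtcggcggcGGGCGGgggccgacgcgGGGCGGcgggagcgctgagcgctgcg
Igf2r, chr17:12769707-12769956, minus strand: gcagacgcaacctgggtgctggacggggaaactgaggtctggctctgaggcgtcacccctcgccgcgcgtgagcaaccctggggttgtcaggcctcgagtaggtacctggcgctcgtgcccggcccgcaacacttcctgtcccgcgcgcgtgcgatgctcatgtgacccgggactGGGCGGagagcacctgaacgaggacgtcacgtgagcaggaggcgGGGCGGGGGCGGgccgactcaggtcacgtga
Igfbp4, chr11:99040994-99041243, plus strand: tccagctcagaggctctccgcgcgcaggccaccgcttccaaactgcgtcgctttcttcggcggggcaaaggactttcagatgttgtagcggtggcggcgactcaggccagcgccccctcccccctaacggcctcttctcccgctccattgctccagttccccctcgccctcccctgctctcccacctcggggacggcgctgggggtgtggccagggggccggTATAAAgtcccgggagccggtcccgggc
The GC box stood in 6 of the 13 member windows, those of Igf1r, Igf2 (2 windows), Igf2r, Igfbp2 and Igfbp7, and in 32.7% of all 32851 promoter windows. The TATA box stood in the Igfbp4 window alone among the members and in 12.4% of all windows. The CpG count per window was 42 in Igf1r, 27 in Igf2r, 22 in Igfbp4 and 6 in the Igf2 window shown, against a median of 6.0 over all windows. The letters of RUNX (TGTGGT; 14.0% of all windows), SOX (ATTGTT; 9.42%), FOXO (TGTTTAC; 3.17%) and STAT5 (TTCNNNGAA; 7.02%) motifs were found in 1, 1, 0 and 0 of the member windows. The RUNX letters were in Igfbp3 and the SOX letters in an Igf2 window that is not shown.

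The annotation covered 31076 PTB nuclei of 15 types and 48237 PF/F nuclei of 16 types, out of 63177 and 57958 barcodes, and held 33515253 to 52902902 unique molecular identifiers (UMIs) per library. Any pair of libraries shared 11 to 60 annotated barcode sequences. Tbx1 stood at 38.9 and 39.4 counts per 1000000 UMIs (CPM) in the annotated nuclei of the WT PTB libraries and at 26.3 and 35.7 CPM in the Tbx1+/- PTB libraries, so the genotypes did not overlap. Of all genes there, 12.4% were lower in this way. Tbx1 did not pass the genotype test described below, in which 0 of 20250 genes passed in these nuclei. The PF/F libraries had it at 0.0949 to 0.265 CPM. The lists of osteoclast, chondrocyte, hypertrophic chondrocyte, osteoblast and osteocyte markers were each highest in a type of that name, and so were the 11 lists named for a PF/F type. The connective tissue (CT) list, which holds the type I collagen genes, was highest in osteoblasts, with CT1 in the third place. No list was fixed for the chondrocyte progenitor types (CP1 to CP6). The erythroid list reached 2882 CPM in matured chondrocytes and 4065 CPM in PF/F endothelial nuclei, the highest in each tissue.

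Transcripts of other types were found in osteoclasts. These nuclei, which come from blood-forming cells, held Col2a1, the main cartilage collagen gene, at 493, 233, 422 and 289 CPM in WT replicates 1 and 2 and Tbx1+/- replicates 1 and 2. The matured chondrocytes held 9.23 to 11.7 times as much in the same libraries. Each member's level in osteoclasts is given below beside its leading type, and the parts of free RNA and of doublets in these levels were not tested.

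In the PTB, Igf1 was highest in CT1, and Igf2 was highest in CT4 and matured chondrocytes. Igf1 was led by CT1 at 576 ± 52.8 CPM (SD, n = 4 libraries), with 585 and 633 CPM in the WT and 582 and 506 CPM in the Tbx1+/- libraries, and CT3 followed at 443 ± 24.4 CPM. CT1 lay above each of the other 14 types in all 4 libraries. The hypertrophic chondrocyte/osteoblast class came next at 271 ± 54.1 CPM and did not differ beyond the spread from CP2 at 253 ± 41.7 CPM. Along the bone-forming types the Igf1 level was 73.4 ± 30.8 CPM in osteoblasts and 62.6 ± 30.8 CPM in matured osteoblasts, the lowest of the 15 types. Osteoclasts held 80.0 ± 20.4 CPM, and CT1 exceeded them 5.64-fold to 10.5-fold within a library.

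Igf2 was highest in CT4 at 918 ± 237 CPM, in matured chondrocytes at 787 ± 99.7 CPM and in CT3 at 742 ± 159 CPM. In CT4 the WT libraries had 1224 and 791 CPM and the Tbx1+/- libraries 972 and 684 CPM. CT4 led in 3 libraries and matured chondrocytes in the other, so these were not ordered beyond their spread, and neither were matured chondrocytes and CT3. CT4 lay above the other 13 types, CT3 included, in all 4 libraries. The CP types ranged from 237 CPM in CP5 to 484 CPM in CP1, osteoblasts had 273 ± 92.7 CPM, and osteoclasts were lowest at 191 ± 75.3 CPM. CT4 exceeded osteoclasts 3.92-fold to 7.29-fold within a library, and after thinning each nucleus to 1500 UMIs an Igf2 UMI was found in 67.0% of CT4 nuclei and 26.0% of osteoclasts (unthinned 90.7% and 62.5%, at median depths per library of 3964 to 4413 and 4963 to 7105 UMIs). H19, the noncoding RNA gene imprinted together with Igf2, shared the leading types, at 1105 CPM in matured chondrocytes and 891 CPM in CT4.

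**Figure D1:**
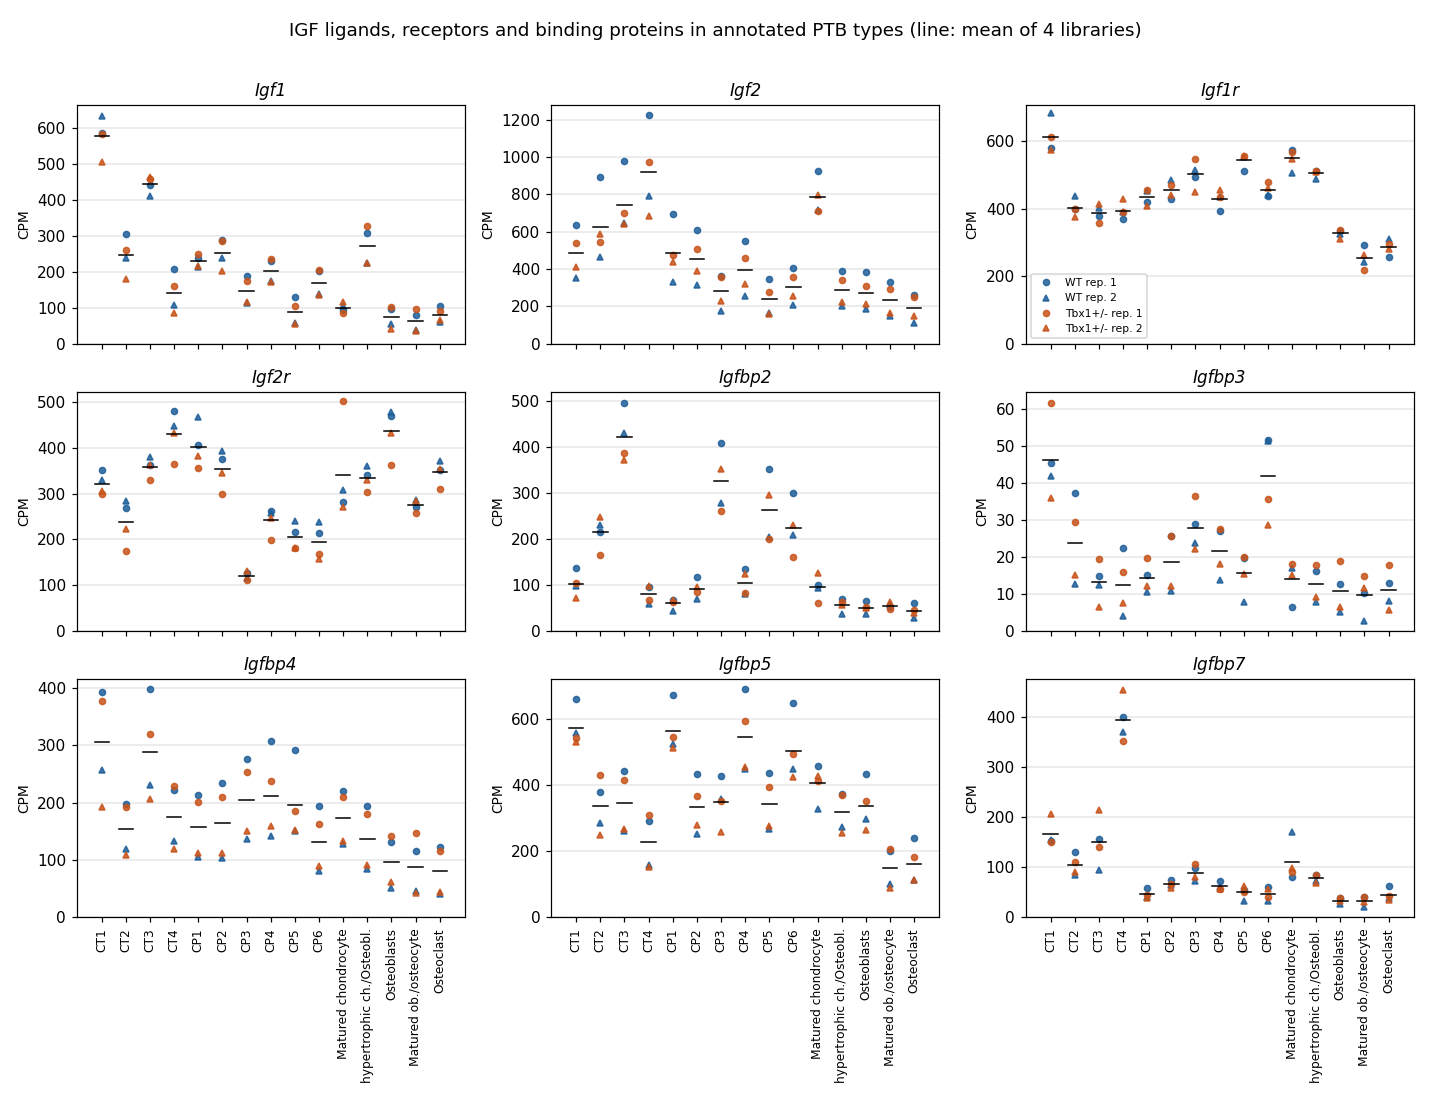
CPM of the 9 members (1 panel each) in the 15 annotated PTB types, with 1 point per library (blue WT, orange Tbx1+/-; circles replicate 1, triangles replicate 2) and a line at the mean of 4 libraries. Igf1 peaks in CT1 at 576 CPM, Igfbp2 in CT3 at 420.4 CPM and Igfbp7 in CT4 at 394 CPM, whereas the mean of Igf1r stays between 254 and 613 CPM over the types.

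In the PF/F, Igf1 was led by immune nuclei at 321 ± 76.4 CPM, with 214 and 387 CPM in the WT and 318 and 363 CPM in the Tbx1+/- libraries, and these lay above the other 15 types in all 4. Purkinje cells, the output neurons of the cerebellar cortex, followed at 77.8 ± 11.2 CPM and meningeal nuclei at 55.2 ± 19.1 CPM, and progenitors had 36.4 CPM and GABAergic interneurons 25.3 CPM. Purkinje cells held 39.6% of the 1874 Igf1 UMIs of annotated PF/F nuclei and immune nuclei held 22.0%. Astroglia had 1.97 ± 0.133 CPM, and pericytes had 0 UMIs, in 74 nuclei.

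Because Purkinje nuclei held more UMIs than immune nuclei (medians per library of 5653 to 8533 against 2474 to 2840.5), shares of nuclei were again taken after thinning to 1500 UMIs. Igf1 was then found in 33.1% ± 5.68 of immune nuclei and 9.95% ± 1.19 of Purkinje nuclei (SD, n = 4), against 47.1% and 32.5% unthinned. In astroglia the share was 0.344% thinned and 0.742% unthinned, at median depths of 2846 to 3591 UMIs. Thinning left out 8 immune, 0 Purkinje and 13 astroglial nuclei.

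Igf2 was highest in meningeal nuclei and pericytes in the PF/F. Meningeal nuclei had 339 and 483 CPM in the WT and 528 and 622 CPM in the Tbx1+/- libraries, a mean of 493 ± 118 CPM, and pericytes had 246 ± 120 CPM in 12 to 25 nuclei per library. Endothelial nuclei came next at 38.2 ± 23.0 CPM, and each of these neighbours was ordered the same way in 4 of 4 libraries. Meningeal nuclei were 706 of the 48237 and held 43.4% of the Igf2 UMIs. The neuronal, glial and immune types lay between 1.16 and 14.0 CPM, with GNPs highest among them.

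Igf1r was the member found most evenly in the PTB. Its level there ran from 613 ± 51.0 CPM in CT1 to 254 ± 31.7 CPM in matured osteoblasts, a 2.41-fold range that was the narrowest of the 9 members. Over the PF/F types its range was 10.3-fold, wider than that of Igfbp5 (9.85-fold). Matured chondrocytes (550 ± 30.4 CPM), CP5 (545 ± 21.4 CPM) and the hypertrophic chondrocyte/osteoblast class (505 ± 10.9 CPM) followed CT1, while osteoblasts had 327 ± 12.0 CPM and osteoclasts 285 ± 22.6 CPM. In CT1 the libraries had 580.1 and 685 CPM (WT) and 613 and 573 CPM (Tbx1+/-).

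Endothelial nuclei led Igf1r in the PF/F at 1291 ± 379 CPM, with 749 and 1631 CPM in the WT and 1427 and 1358 CPM in the Tbx1+/- libraries. GNPs, the dividing precursors of granule neurons, were second at 534 ± 64.5 CPM and lay above the progenitors of GABAergic interneurons (487 ± 74.4 CPM) in 4 of 4 libraries. Differentiated granule neurons had 295 ± 25.5 CPM, and within each library GNPs were above them. Purkinje cells had 155 ± 12.5 CPM. The WT and Tbx1+/- values of GNPs overlapped, at 467 and 602 CPM against 494 and 576 CPM.

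By the mean, Igf2r was highest in osteoblasts, which led in 2 of 4 libraries. These had a mean of 437 ± 52.3 CPM and did not differ beyond the spread from CT4 at 432 ± 48.8 CPM or CT4 from CP1 at 403 ± 48.1 CPM. CP3 was lowest at 120.2 ± 9.33 CPM. Osteoclasts had 347 ± 25.7 CPM, and osteoblasts exceeded them 1.17-fold to 1.34-fold within a library. Pericytes led in the PF/F at 793 ± 206 CPM, meningeal nuclei followed at 255 ± 53.6 CPM and endothelial nuclei at 154 ± 37.6 CPM, in this order in 4 of 4 libraries. Differentiated granule neurons had 34.7 ± 2.64 CPM. Airn followed Igf2r over the types, with 2131 CPM in CT4, 1568 CPM in PF/F pericytes and 479 CPM in CP3.

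By the mean, CT1 led Igfbp3, Igfbp4 and Igfbp5 in the PTB, CT3 led Igfbp2 and CT4 led Igfbp7. Igfbp2 was led by CT3 at 420.4 ± 55.9 CPM, with 496 and 429 CPM in the WT and 385 and 372 CPM in the Tbx1+/- libraries. CP3 (324 ± 68.1 CPM), CP5 (262 ± 74.0 CPM) and CP6 (224 ± 58.2 CPM) came next, whereas CP1 had 58.9 ± 11.7 CPM. Osteoclasts had 42.8 ± 13.4 CPM. Meningeal nuclei led Igfbp2 in the PF/F at 310 ± 62.9 CPM, and astroglia (104 ± 11.2 CPM) and early rhombic lip nuclei (104 ± 16.8 CPM) did not differ beyond the spread.

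Igfbp3, the main carrier of IGFs in blood, gave few UMIs. In the PTB it was highest in CT1 at 46.4 ± 11.02 CPM and CP6 at 41.9 ± 11.6 CPM, which were not ordered beyond their spread, and osteoclasts had 11.1 ± 5.36 CPM. The highest mean of a PF/F type was 13.3 CPM, in progenitors (4.23, 18.3, 7.61 and 23.1 CPM, from 22 UMIs in 152 nuclei), and became 37.9 CPM without the 8% of nuclei with most UMIs. The annotated PF/F nuclei held 522 Igfbp3 UMIs. The rank correlations of the type order between libraries ran from 0.021 to 0.626 over 16 types. For Igf2 in the PTB they ran from 0.971 to 0.993 over 15 types. These correlations are descriptions, and the types of 1 library share its depth.

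Igfbp4 was highest in CT1 (305 ± 96.5 CPM) and CT3 (289 ± 87.4 CPM), which were not ordered. Its libraries were separated by replicate number: CT1 had 394 and 378 CPM in replicate 1 and 257 and 193 CPM in replicate 2 (WT and Tbx1+/-). In all 15 PTB types both replicate 1 libraries lay above both replicate 2 libraries, also in osteoclasts with 122 and 116 CPM against 40.3 and 43.9 CPM. The same held in 13 types for Igf2 and in 12 each for Igf1, Igfbp3 and Igfbp5, against 0 for Igf2r. Of 20369 genes, 0.501% did so in all 15 types, 2.2% in at least 13 and 2.98% in at least 12. PF/F Igfbp4 was highest in endothelial (74.9 ± 33.9 CPM) and meningeal nuclei (64.6 ± 9.94 CPM), and differentiated granule neurons had 4.13 ± 0.253 CPM.

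Igfbp5, which is made by bone-forming cells and held in bone matrix, was highest in a CT type and several CP types, while CT4 had 228 CPM. CT1 (573 ± 59.9 CPM), CP1 (564 ± 74.7 CPM), CP4 (547 ± 118 CPM) and CP6 (505 ± 100.2 CPM) were the highest, and no neighbours among them in this order differed beyond their spread, although CT1 and CP1 each lay above 12 of the other 14 types, CP6 included, in all 4 libraries. Matured osteoblasts were lowest at 149.6 ± 64.2 CPM. Osteoclasts had 163 ± 60.9 CPM, and CT1 exceeded them 2.75-fold to 4.88-fold. In the PF/F its leading type was neuronal: differentiated GABAergic interneurons had 211 and 176 CPM in the WT and 197 and 161 CPM in the Tbx1+/- libraries. GNPs were second at 153 ± 20.5 CPM, whereas GABAergic interneuron progenitors had 34.3 ± 11.9 CPM and Purkinje cells 18.9 ± 4.19 CPM.

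The CPM of Igfbp7 was highest in CT4 in the PTB and in vessel nuclei in the PF/F. CT4 had 400.2 and 369 CPM in the WT and 352 and 454 CPM in the Tbx1+/- libraries, a mean of 394 ± 44.7 CPM, above the other 14 types in all 4. CT1 at 166 ± 27.0 CPM and CT3 at 150.7 CPM came next and were not ordered beyond their spread, and osteoblasts had 33.7 ± 5.76 CPM. Osteoclasts had 44.4 ± 12.7 CPM, and CT4 exceeded them 6.38-fold to 13.4-fold within a library. In the PF/F endothelial nuclei had 837 ± 96.6 CPM, pericytes 464 ± 96.7 CPM and meningeal nuclei 26.1 ± 5.42 CPM, in this order in 4 of 4 libraries. After thinning to 1500 UMIs, 56.2% of endothelial nuclei held an Igfbp7 UMI, against 2.55% of astroglia (unthinned 73.5% and 5.47%; medians of 2485.5 to 3169 and 2846 to 3591 UMIs).

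**Figure D2:**
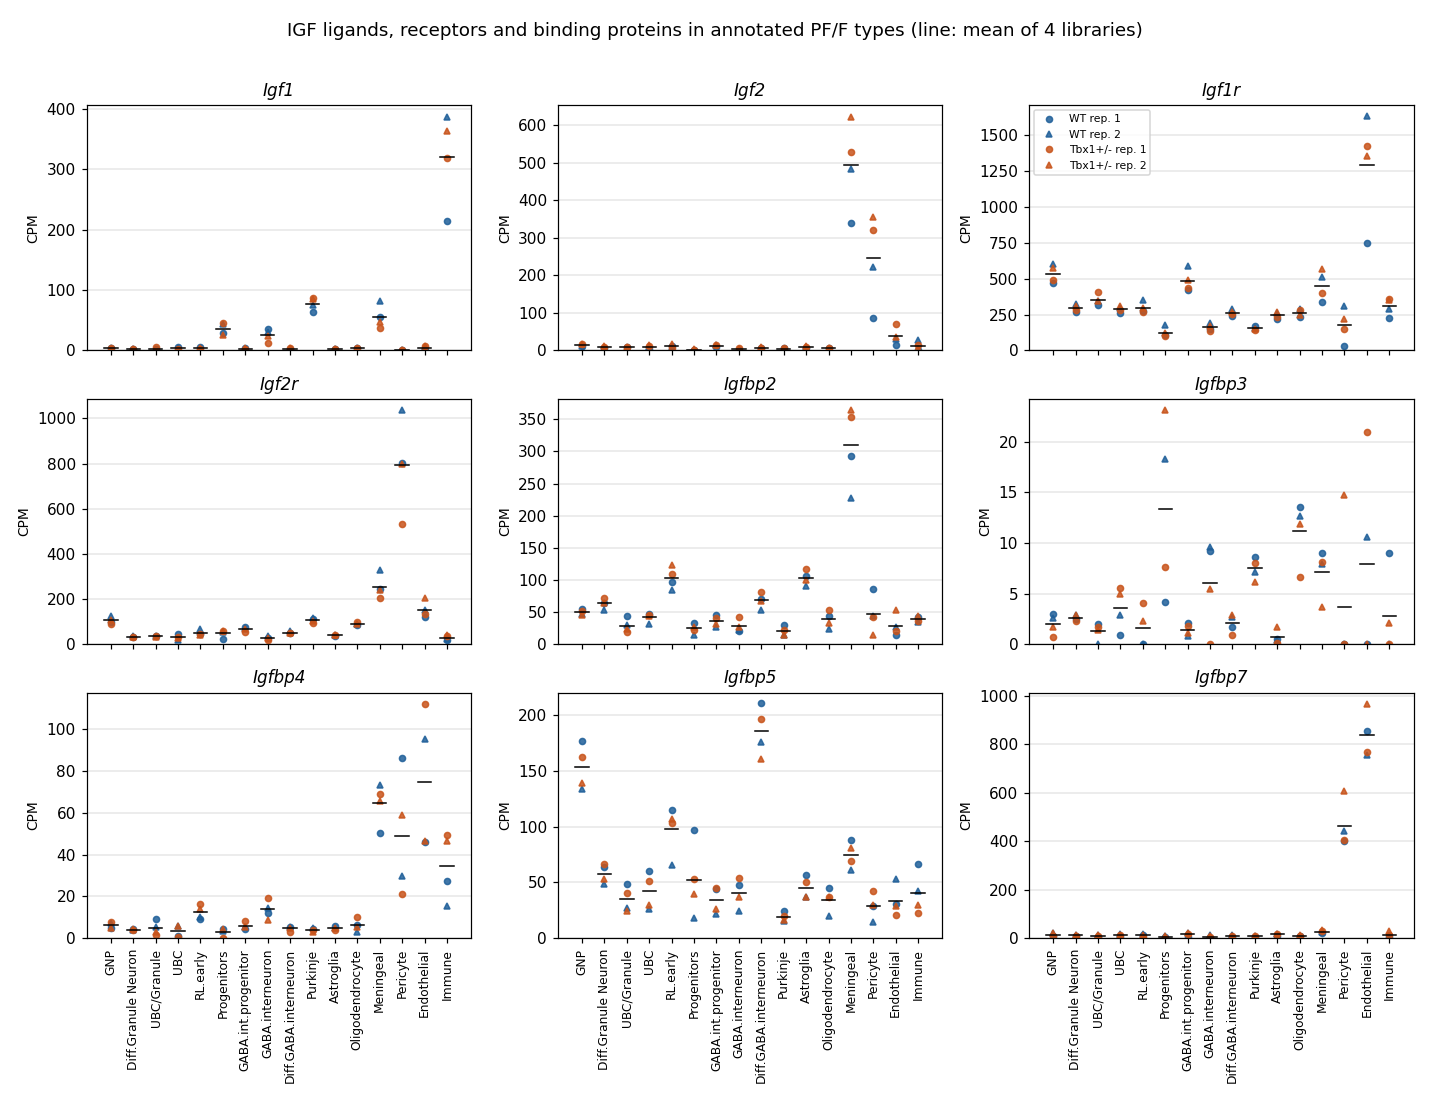
CPM of the 9 members (1 panel each) in the 16 annotated PF/F types, drawn as for the PTB. Immune nuclei lead Igf1 at 321 CPM, meningeal nuclei lead Igf2 at 493 CPM, and endothelial nuclei lead Igf1r at 1291 CPM and Igfbp7 at 837 CPM.

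For each member, the other genes whose log2(mean CPM + 1) correlated best with it over the 31 types of both tissues were listed, from 9464 genes with at least 50 CPM in a type. Igf2 was closest to Col3a1 (r = 0.978), Tbx15 (0.973) and Pcolce (0.969), and Igf2r to Airn (0.98), Gm49959 (0.968) and Carmn (0.913). Igf1r was closest to Insr (0.839), the insulin receptor gene, Jmy (0.838) and Rdx (0.836). Igf1 was closest to Lsp1 (0.896), Ecpas (0.885) and Adam33 (0.875). Among the binding proteins, Igfbp7 was closest to Eng (0.924), Clec14a (0.907) and Gng11 (0.898), and Igfbp4 to Ahnak (0.962), Foxc1 (0.962) and Emilin1 (0.959). Igfbp5 was closest to Cox16 (0.909), Aqp1 (0.908) and Fabp4 (0.894), Igfbp2 to Vcam1 (0.846), Sned1 (0.82) and Adamtsl3 (0.815), and Igfbp3 to Steap3 (0.85), Mfap2 (0.835) and Oc90 (0.834). The types share libraries, and the difference between the tissues enters every value, so these are descriptions.

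The tissues were then compared on the summed annotated nuclei of all 8 libraries, with genotype as a covariate. The study describes the same 2 batches of mice for both tissues, so PTB and PF/F libraries may come from the same mice. The fit had no term for this, and its p-values treat the 8 libraries as separate pools. A gene was called at an adjusted p (edgeR quasi-likelihood test, Benjamini-Hochberg) under 0.05 and a change over 1.5-fold, and 60.5% of the 21176 genes tested were called, 28.0% as higher in the PTB. Of the 9 members, 8 were called, each higher in the PTB, with a median log2 difference of 2.45 over the 9 members against -0.06 over all genes. The annotated PTB nuclei are skeletal types and osteoclasts only, so each value also carries this choice of nuclei. In such sums fewer cells of a type and less RNA per cell cannot be told apart.

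Igfbp4 and Igf2 had the largest differences, and their order lay within the standard errors. Igfbp4 had 231.6, 102.8, 198 and 100.2 CPM in the PTB (WT replicates 1 and 2, then Tbx1+/- replicates 1 and 2) and 6.02, 6.61, 6.93 and 6.41 CPM in the PF/F. Its log2 difference was 4.59 ± 0.32 (SE), with an adjusted p by edgeR of 1.11e-06. Igf2 had 523, 274, 407 and 310.2 CPM in the PTB and 12.0, 15.1, 20.2 and 21.6 CPM in the PF/F, a log2 difference of 4.47 ± 0.28 (adjusted p by edgeR 5.00e-07). Every PTB library of both genes was above every PF/F library. Igf1 followed, with 252, 173, 235 and 145 CPM against 9.18, 12.0, 9.15 and 12.4 CPM and a log2 difference of 4.22 ± 0.23 (adjusted p by edgeR 1.98e-07).

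Igf2r was higher in the PTB by 2.45 ± 0.10 on the log2 scale, Igfbp3 by 2.60 ± 0.30, Igfbp5 by 2.25 ± 0.18, Igfbp7 by 2.15 ± 0.25 and Igfbp2 by 0.76 ± 0.16. The receptor Igf1r differed least. It had 431, 428, 434 and 409 CPM in the PTB and 286, 358, 319 and 332 CPM in the PF/F, a log2 difference of 0.38 ± 0.10 that passed the adjusted p (0.00707, edgeR) but not the 1.5-fold limit.

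**Figure D3:**
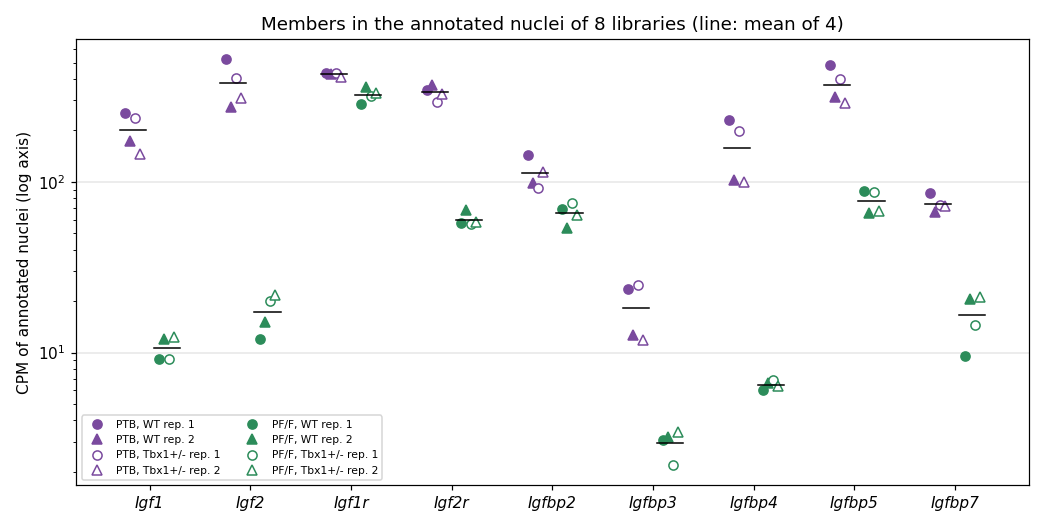
CPM (log axis) of each member in the annotated nuclei of the 4 PTB (purple) and 4 PF/F (green) libraries, filled for WT and open for Tbx1+/-, with circles for replicate 1, triangles for replicate 2 and a line at the mean of 4. All PTB points of Igf1, Igf2 and Igfbp4 lie above 100 CPM and all their PF/F points below 22 CPM, while the Igf1r points lie between 286 and 434 CPM.

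Other genes of the pathway were taken from a list of 49, of which 44 passed the filter on low counts in this fit. Of these, 26 were called, 25 of them higher in the PTB, where 60.5% of all genes were called and 28.0% were called as higher in the PTB, and their median log2 difference was 1.02. H19 was higher by 7.83 ± 0.34 on the log2 scale, Stat5a of the growth hormone axis by 4.20 ± 0.17, and the IGFBP-cleaving protease genes Htra1 and Pappa by 3.73 ± 0.12 and 2.24 ± 0.09. The adaptor gene Grb10 had 664.5 ± 67.2 CPM in the PTB and 60.5 ± 5.73 CPM in the PF/F, and Foxo1, a transcription factor gene restrained by insulin and IGF signalling, had 135 ± 5.46 and 18.8 ± 0.691 CPM. The insulin receptor gene Insr was not called, with a log2 difference of 0.35 at 164 ± 5.70 and 127 ± 12.3 CPM. The single gene called lower was Igfbpl1, an IGFBP-like gene, with 377 ± 60.1 CPM in the PF/F, 855 CPM in GNPs and 0.497 ± 0.179 CPM in the PTB.

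No member was called between genotypes in any class that was tested. In the PTB, CT1 to CT4 and CP1 to CP6 were summed into 2 classes and 6 classes with at least 50 nuclei in each library were tested, and in the PF/F 12 types were tested. Matured chondrocytes in the PTB fell below this limit and were not tested. The same held for endothelial nuclei, pericytes, progenitors and GABAergic interneurons in the PF/F. These PF/F types include those with the highest mean of Igf1r, Igf2r, Igfbp3, Igfbp4 and Igfbp7. All 9 members passed the filter in each PTB class (54 tests), and 0 were called by edgeR, where 0% of 88175 gene tests were called, with 0 members at an unadjusted p under 0.05. In the PF/F, 87 member tests gave 0 calls, where 0.000677% of 147602 gene tests were called, and 7 had an unadjusted p under 0.05, as did 1912 (1.3%) of the gene tests. In the annotated nuclei as a whole 0% of genes were called in either tissue, and 0 and 1 members (PTB and PF/F) had an unadjusted p under 0.05. DESeq2 called 0 members in all of these fits. Of the pathway list, 0 of 243 tests in PTB classes and 0 of 400 tests in PF/F types were called, with 3 and 5 at an unadjusted p under 0.05. With 2 pools per group, these fits leave small differences undetected. With the replicate number as a block, 7 of 54 member tests in PTB classes (4.24% of gene tests), 14 of 87 in PF/F types (4.36%), 3 of 9 in PF/F annotated nuclei (3.02%) and 0 of 9 in PTB annotated nuclei (5.15%) had an unadjusted p under 0.05, and 0 members were called.

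In the summed annotated PTB nuclei, 8 of 9 members had a log2 difference below 0, between -0.24 for Igfbp2 and -0.03 for Igf1r, and Igfbp3 stood at 0.01, where 50.9% of all genes were below 0. Of the 9, 2 were below 0 without WT replicate 1, 3 without Tbx1+/- replicate 2 and all 9 on leaving out either of the other libraries. The standard errors were 0.09 (Igf1r) to 0.48 (Igfbp4). The share of CT1 nuclei, the leading type of Igf1 and Igfbp4, was 13.2% and 5.55% in the WT and 10.1% and 1.84% in the Tbx1+/- libraries, and its part in these sums was not tested. Within CT1 both Tbx1+/- values of Igf1 were below both WT values, and within CT3 both were above, at 458 and 464 CPM against 441 and 409 CPM. Of the 15 types, CT1 was the only 1 with Igf1 lower in this way and CT3 the only 1 with it higher. In the other types the genotypes overlapped. The share of all genes without overlap in a single type was not counted, so these 2 cases are descriptions and not differences particular to CT1 or CT3. The CT1 value of Tbx1+/- replicate 2 came from 118 nuclei. In the CT class, which sums CT1 to CT4, the log2 difference of Igf1 was -0.26 ± 0.27 (adjusted p by edgeR 1).

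Osteoclasts were the 1 class in which leaving out a library changed the count of members called. Their Igf2 values were 262 and 109 CPM in the WT and 248 and 147 CPM in the Tbx1+/- libraries, so that each genotype had a high replicate 1 and a low replicate 2. Without WT replicate 1, which leaves a single WT library that is assumed to vary like the others, Igf2 (log2 difference 0.85) and Igfbp4 (0.97) were called, with adjusted p-values by edgeR of 0.00309 and 0.0203, and so was H19 (1.18). In that fit 1.48% of 13897 genes were called. The chondrocyte marker list in osteoclasts moved with these genes, at 784 and 376.5 CPM in the WT and 667 and 469.8 CPM in the Tbx1+/- libraries, and the osteoblast list stood at 3581 and 2625 CPM against 3397 and 3518 CPM. Without WT replicate 1 both lists were higher in both Tbx1+/- libraries than in the WT library, and their part in the result was not tested.

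Igf2r was the member with the smallest genotype p in the PTB. In the annotated nuclei it had 343 and 368 CPM in the WT and 295 and 329 CPM in the Tbx1+/- libraries, the 1 member of 9 whose genotypes did not overlap there, where 12.4% of genes were lower and 10.9% higher in this way. The log2 difference was -0.19 ± 0.10 in these nuclei, -0.22 ± 0.10 in the CP class and -0.26 ± 0.13 in osteoblasts, with adjusted p-values by edgeR of 1 in each (unadjusted 0.119, 0.0785 and 0.0937 from the same fits). Osteoblasts had 471 and 478 CPM in the WT and 364 and 434 CPM in the Tbx1+/- libraries. Both Tbx1+/- libraries lay below both WT libraries in 11 of 15 types, a count that 0.0393% of 20369 genes reached or passed. That limit was the count of Igf2r itself, and the genes were not matched for level. This count was also the largest of any member in either direction in the PTB. Those of the other members were not set against all genes. The types share their 4 libraries and are not independent, so this share is a description. Airn, counted over part of the same stretch, was lower in this way in 0 of 15 types and higher in 2. Next in order of p was Igfbp3 in matured osteoblasts, at 10.1 and 2.52 CPM in the WT and 14.7 and 11.6 CPM in the Tbx1+/- libraries (log2 difference 0.89, adjusted p by edgeR 0.999), and this difference ran from 0.35 without WT replicate 2 to 2.30 without WT replicate 1. WT replicate 2 held 146 of these nuclei with 795223 UMIs over all genes, so its value rests on very few Igfbp3 UMIs.

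**Figure D4:**
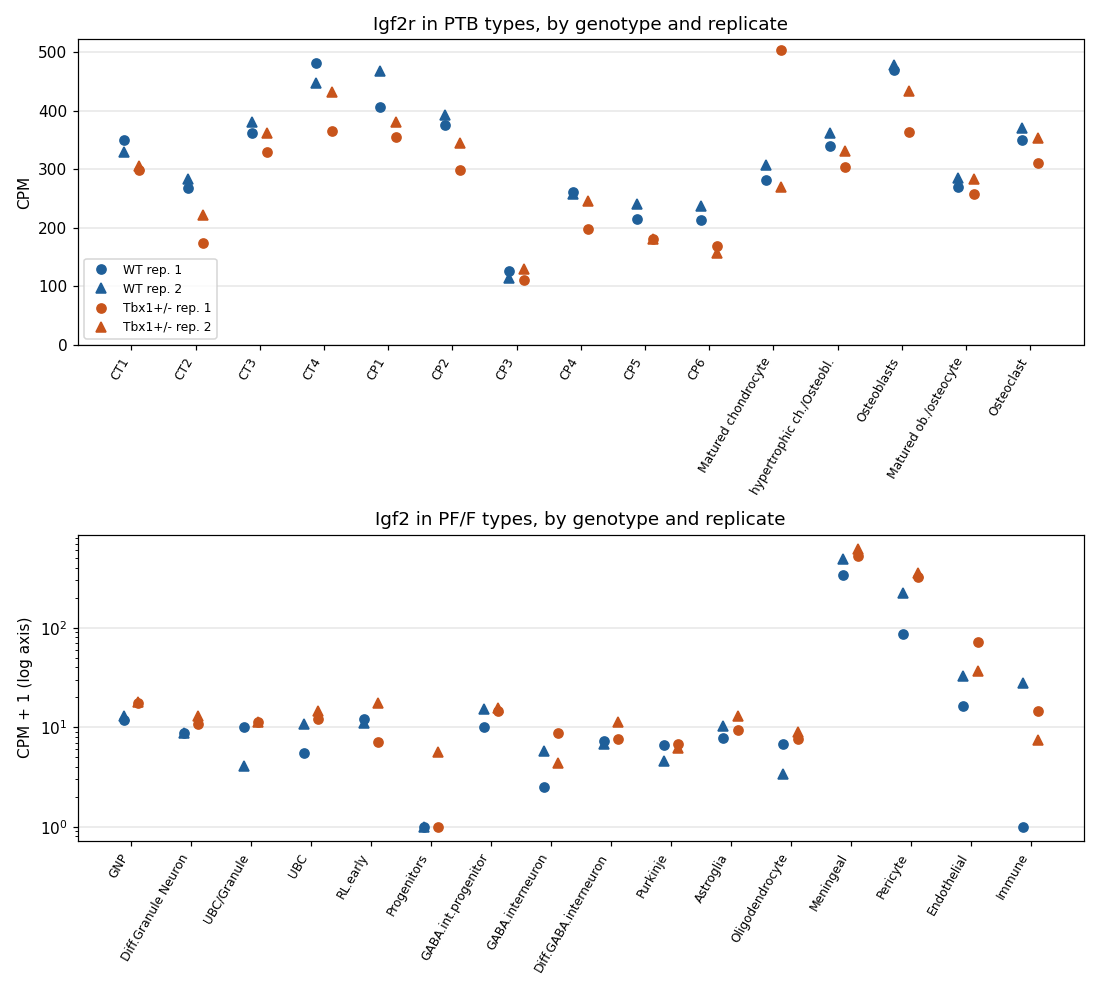
Upper panel: CPM of Igf2r in the 15 PTB types. Lower panel: CPM + 1 (log axis) of Igf2 in the 16 PF/F types. Points are libraries, blue for WT and orange for Tbx1+/-, with circles for replicate 1 and triangles for replicate 2. Igf2r is lower in both Tbx1+/- libraries in 11 types, not in CP3, matured chondrocytes, matured osteoblasts or osteoclasts, and Igf2 is higher in both Tbx1+/- libraries in 9 types, although no difference was called.

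Igf2 showed the reverse arrangement in the PF/F. The annotated nuclei had 12.0 and 15.1 CPM in the WT and 20.2 and 21.6 CPM in the Tbx1+/- libraries, so that Igf2 was the only member without overlap, where 7.63% of 20977 genes were higher and 10.4% lower in this way. The log2 difference was 0.64 ± 0.15 with an unadjusted p of 0.00709 and an adjusted p of 1 by edgeR. Both Tbx1+/- libraries were above both WT libraries in 9 of 16 types, a count reached or passed by 0.0191% of genes. That limit was the count of Igf2 itself, and the genes were not matched for level. This count was also the largest of any member in either direction in the PF/F. Those of the other members were not set against all genes. The 16 types share their libraries and are not independent, so this share is a description.

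GNPs had 10.7 and 12.0 CPM in the WT and 16.3 and 17.1 CPM in the Tbx1+/- libraries (log2 difference 0.58 ± 0.18, adjusted p by edgeR 1), and differentiated granule neurons 7.73 and 7.80 against 9.75 and 12.1 CPM (0.52 ± 0.18, adjusted p by edgeR 1). Meningeal nuclei, the main source of Igf2 UMIs, were 1.26% and 1.34% of the WT and 1.64% and 1.55% of the Tbx1+/- nuclei. Without meningeal nuclei and pericytes the Igf2 level of the remaining nuclei was 7.55 and 8.35 CPM in the WT and 10.6 and 11.8 CPM in the Tbx1+/- libraries. In the annotated nuclei the sum of the 5 meningeal markers was also higher in both Tbx1+/- libraries, at 57.6 and 64.2 CPM in the WT and 76.5 and 66.9 CPM in the Tbx1+/- libraries. The 2 Tbx1+/- libraries stood in the opposite order to that of Igf2. They summed to 24.1 and 15.4 CPM in WT GNPs and 27.9 and 16.8 CPM in Tbx1+/- GNPs, and to 16.7 and 13.3 CPM against 20.7 and 14.6 CPM in differentiated granule neurons. In both types the genotypes overlapped, but the Tbx1+/- value was the higher one within each replicate number. Of the single markers, Slc6a13 was higher in both Tbx1+/- libraries in both types and Dcn in granule neurons, and Lum was lower in both in GNPs. The genotypes overlapped in the other cases, Ranbp3l and Col1a2 in both types among them. Levels were low, with Slc6a13 between 0.93 and 3.22 CPM and Lum in GNPs between 1.29 and 1.55 CPM. How many of all genes were without overlap in these types was not counted, so these cases are descriptions. The part of these markers in the Igf2 values was not tested. Among the named pairs, Igf1 in meningeal nuclei had 55.8 and 81.2 CPM in the WT and 36.5 and 47.1 CPM in the Tbx1+/- libraries (log2 difference -0.70 ± 0.31, adjusted p by edgeR 1).

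Whether the genotype difference depended on tissue was tested with an interaction term over the 8 libraries. This fit, too, had no term for mice that the tissues may share. None of the 9 members was called by edgeR or by DESeq2, where 0% of 22148 genes were called, and 0 members had an unadjusted p under 0.05. For Igf2 the genotype difference in the PTB minus that in the PF/F was -0.79 ± 0.43 on the log2 scale (adjusted p by edgeR 1), and for Igf2r it was -0.06 ± 0.20.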

How the data were processed

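The deposited values were whole-number UMI counts per gene and barcode, made by the authors with Cell Ranger 7.0.0 in intron mode on mm10 from 10x 3' nuclei libraries. The authors' annotation, made after filtering and SoupX correction, named the nuclei; the deposited counts were taken as not corrected for free RNA, and no doublet caller was run. Counts were summed per library and type and given as CPM. The members and lists were chosen with earlier results of these data known. Named genes were the members, a pathway list, marker lists, the 3 genes most like each member, the 3 member and class pairs with the smallest genotype p per tissue, and Tbx1.

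Genotype (2 against 2 libraries), tissue and their interaction were tested with edgeR 4.0.16 (quasi-likelihood, TMM, filterByExpr) in R 4.3.3, called at an adjusted p under 0.05 and over 1.5-fold, after tests on simulated data. DESeq2 1.42.0, a fit with the replicate number as a block, and other filters were alternatives. Libraries of the same number deviated together (r = 0.478 in the PTB and 0.55 in the PF/F over genes), and the study describes 2 batches. P-values measure the spread between pools. Intervals of counting error were not formed. Levels came from pandas 2.3.3 and scipy 1.17.1 under Python 3.11.15, and plots from matplotlib 3.10.9.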

Additional observations from a re-analysis of the deposited data

Results flagged for a closer look

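Igfbp7 was found at a high level in PTB barcodes that the annotation leaves out. These were 2767 barcodes that passed a minimum of detected genes and carried 3 or more UMIs of Cdh5, Pecam1 and Flt1, markers of endothelium. They also carried more UMIs of this list than of any other list used for such barcodes. Igfbp7 stood there at 758, 446, 524 and 592 CPM in WT replicates 1 and 2 and Tbx1+/- replicates 1 and 2, a mean of 579.7 ± 132.9 CPM (SD, n = 4). This was above every annotated PTB type in 4 of 4 libraries, the leading one being CT4 at 394 CPM. Lying above them in all 4 was the rule by which it was picked from all members and marker lists in the PTB. It is therefore not a separate result. These barcodes enter none of the comparisons. The barcodes were chosen by their markers, were not filtered for doublets and are not a named cell type.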

How the results depend on the processing

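With 2 pools per group, small genotype differences are not detectable here, and the PF/F levels of pericytes (74 nuclei), progenitors (152) and endothelial nuclei (183) rest on few nuclei. The counts of called members, of called pathway genes and of members with 1 leading type stayed within 1.5 times the main ones under each alternative that kept all libraries (58 values). On leaving out 1 library, members called in PTB classes ranged from 0 to 2 and pathway genes from 0 to 1, both highest without PTB WT replicate 1 in osteoclasts. The other 54 such counts kept within the same limit. With all libraries kept, 4 levels in leading types moved by at least their SD, 1 of them Igfbp3 in PF/F progenitors. Igf1 in PF/F immune nuclei went from 320.6 to 228.0 CPM with at least 2000 genes. In that setting Igfbp5 in differentiated GABAergic interneurons went from 186.2 to 159.4 CPM. Igfbp7 in PF/F endothelial nuclei went from 837.3 to 688.1 CPM without the 8% of nuclei with most UMIs. The leading PTB type became CP1 for Igfbp5 in both settings and CT4 for Igf2r in the first. The tissue differences kept their direction for all 9 members in every alternative run. The paired fit, with replicate number as a block, called 31 genes in place of 0 in PTB classes and 54 in place of 1 in PF/F types, none of them a member, and gave 0.65 for Igf2 in PF/F annotated nuclei (adjusted p by edgeR 0.747).

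The genotype differences of members in annotated nuclei, none of them called, changed sign in these cases, on the log2 scale. With 1 library left out, the PTB values ranged from -0.55 to 0.15 (Igf1), -0.55 to 0.40 (Igf2), -0.071 to 0.020 (Igf1r), -0.49 to 0.082 (Igfbp2), -0.62 to 0.55 (Igfbp3), -0.74 to 0.55 (Igfbp4), -0.49 to 0.15 (Igfbp5) and -0.24 to 0.15 (Igfbp7). All but those of Igf1r and Igfbp3 turned positive without PTB WT replicate 1. The PF/F values ranged from -0.19 to 0.25 (Igf1), -0.11 to 0.20 (Igf1r), -0.24 to 0.010 (Igf2r), -0.51 to 0.12 (Igfbp3), -0.19 to 0.26 (Igfbp5) and -0.17 to 0.93 (Igfbp7). Igf2r in the PTB kept to -0.27 to -0.11 and Igf2 in the PF/F to 0.49 to 0.81. Igfbp3 in the PTB became -0.0057 with the block. In the PF/F, Igfbp3 became 0.046 with only nuclei of at least 2000 genes, and without the 8% of nuclei with most UMIs Igfbp4 became -0.0053 and Igfbp5 -0.0024. Of the named classes, Igf2r in osteoblasts ranged from -0.42 to -0.13, Igf1 in meningeal nuclei from -0.92 to -0.42 and Igf2 in granule neurons from 0.32 to 0.66 with 1 library left out. The cause was not tested.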

Other observations

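Other PTB barcodes outside the annotation also held members. Those with pericyte markers (695) had Igfbp7 at 345 ± 90.7 CPM (SD, n = 4), those with muscle markers (1331) Igf2 at 665 ± 206 CPM, and those with immune markers (2597) Igf1 at 273 ± 60.5 CPM. Barcodes with epithelial markers (1491) had Igf1 at 460.2 ± 54.1 CPM, second to CT1 by the mean. Igfbp3 in the endothelial-marker barcodes stood at 105.4, 47.4, 74.5 and 49.0 CPM, above every annotated PTB type in 3 of 4 libraries. In the PF/F the 95 such barcodes outside the annotation had Igfbp7 at 1948 ± 404 CPM. Each barcode was assigned to the list with the most UMIs in it, and ties were left out, so the sets do not overlap. A barcode can still hold UMIs of another list, and no comparison of genotypes was made on these sets.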
